A study of Mus musculus with 4 samples.

Results

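Siglecf, Prg2, Epx, Ccr3, Il5ra, Ear1, Ear2 and Ear6, 8 genes widely used to recognise mouse eosinophils, were followed through every cell class of the nasal mucosa. They are 8 of the 27998 genes in the feature tables, were taken by symbol, and were chosen by their UMI counts in these same libraries, which had shown Siglecf in neutrophils, Prg2 in plasma cells, Ear2 in monocytes and Epx almost nowhere. Those patterns are therefore described here without any test. The material was CD45+ cells from the nasal mucosa of C57BL/6 mice aged 8 weeks, profiled by droplet single-cell RNA-seq in 4 libraries. Vehicle and Ribavirin came from mice without OVA and Vehicle-OVA and Ribavirin-OVA from mice with it, 1 library per group. The allergen OVA, or ovalbumin, was given by the study intraperitoneally with alum and then into the nose to induce allergic rhinitis. Ribavirin is an antiviral nucleoside analogue. The number of mice behind each library is not given in the sources used here, so 1 library per group allows no test of any difference, and the 95% intervals below cover counting error only.

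Eosinophils mature under interleukin 5, read through the receptor chain encoded by Il5ra, and follow eotaxins into tissue through the chemokine receptor encoded by Ccr3. Siglecf encodes a sialic acid binding lectin of the eosinophil surface. The granules hold major basic protein, encoded by Prg2, eosinophil peroxidase, encoded by Epx, and ribonucleases of the Ear family. Several of these genes have known use outside eosinophils: Siglec-F is also carried by alveolar macrophages and by some tissue neutrophils, and B lineage cells can carry the interleukin 5 receptor.

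The 4 libraries held 10311 to 28277 barcodes and 91742940 to 171873110 UMIs, with medians of 3389 to 4952 UMIs per barcode. Of 79132 barcodes, 69085 were kept after filtering. Ribavirin held no barcode under 1782 UMIs, whereas the other libraries reached down to 500 or 501. Library pairs shared 57 to 174 barcode sequences, at most 0.909% of the smaller library. At least 1 UMI of Ptprc, which encodes CD45, was found in 86.0% to 90.3% of the kept cells of a library. Epithelial-like, olfactory neuron-like and stromal-like cells, which should be CD45 negative, made up 1.40% to 6.76% of a library. Clustering gave 39 clusters, of which 4 were left unnamed and the others fell into 14 named classes. The eosinophil marker list of 11 genes took no part in naming, a choice made after the clusters were seen, so no cluster could be named after eosinophils. It reached at most 2 detected markers in any cluster, under the 3 that a name required. With the list allowed to name clusters, none was named after eosinophils, but clusters 0 and 25 were left unnamed too.

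On GRCm38, the assembly called mm10, the genes lie on 6 chromosomes: Prg2 at chr2:84980461-84983632 on the plus strand, Il5ra at chr6:106710357-106749037 on the minus strand, Siglecf at chr7:43351341-43359531 on the plus strand, Ccr3 at chr9:124021972-124031689 on the plus strand and Epx at chr11:87864000-87875536 on the minus strand. The 3 Ear genes lie on chromosome 14, Ear1 at chr14:43818765-43875517 on the minus strand, Ear2 at chr14:44102654-44103534 on the plus strand and Ear6 at chr14:51853699-51854643 on the plus strand. RefSeq promoter windows on GRCm38.p6, each 250 bases before to 50 after a start site, were found for 7 of the 8 genes. The windows of Siglecf and Epx, the members with the most and the fewest UMIs, are shown first, with the motif TGATAA in capitals.

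Siglecf, chr7:43351091-43351390, plus strand: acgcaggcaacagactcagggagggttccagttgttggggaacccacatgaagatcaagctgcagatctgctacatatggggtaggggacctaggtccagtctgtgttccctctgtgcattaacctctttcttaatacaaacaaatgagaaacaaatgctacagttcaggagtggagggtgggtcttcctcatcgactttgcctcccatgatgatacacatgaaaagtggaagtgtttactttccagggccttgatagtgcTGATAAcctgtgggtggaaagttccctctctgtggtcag

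Epx, chr11:87875487-87875786, minus strand: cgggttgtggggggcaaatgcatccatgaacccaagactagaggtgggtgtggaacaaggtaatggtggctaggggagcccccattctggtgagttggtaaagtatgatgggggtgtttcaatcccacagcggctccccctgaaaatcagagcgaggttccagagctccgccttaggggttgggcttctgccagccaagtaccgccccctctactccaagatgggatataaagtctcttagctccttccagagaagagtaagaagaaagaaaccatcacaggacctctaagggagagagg

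The motifs searched were AGATAA and TGATAA, the core bound by GATA factors, on both strands. They share their last 5 letters, so that no base position can hold both. Siglecf held 1 TGATAA, Ccr3 1 AGATAA and Il5ra 1 AGATAA, and the windows of Epx, Ear1, Ear2 and Ear6 held none. Of the 32851 promoter windows in the table, 18.6% held at least 1 of the motifs. The Ear windows are shown because these genes are close copies of each other. Capitals in Ear1 and Ear6 mark bases that differ from Ear2 or have no aligned partner in its window.

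Ear2, chr14:44102404-44102703, plus strand: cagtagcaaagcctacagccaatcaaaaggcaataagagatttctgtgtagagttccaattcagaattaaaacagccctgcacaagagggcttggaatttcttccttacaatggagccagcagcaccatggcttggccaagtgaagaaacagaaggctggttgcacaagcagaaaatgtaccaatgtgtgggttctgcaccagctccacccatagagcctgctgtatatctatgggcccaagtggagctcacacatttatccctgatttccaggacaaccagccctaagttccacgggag

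Ear1, chr14:43819590-43819889, minus strand: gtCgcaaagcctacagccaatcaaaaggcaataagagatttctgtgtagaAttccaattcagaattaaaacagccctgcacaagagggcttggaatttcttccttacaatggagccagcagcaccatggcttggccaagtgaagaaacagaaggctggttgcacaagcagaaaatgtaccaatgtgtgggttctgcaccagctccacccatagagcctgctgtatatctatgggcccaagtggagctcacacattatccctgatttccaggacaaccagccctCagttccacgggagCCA

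Ear6, chr14:51853518-51853817, plus strand: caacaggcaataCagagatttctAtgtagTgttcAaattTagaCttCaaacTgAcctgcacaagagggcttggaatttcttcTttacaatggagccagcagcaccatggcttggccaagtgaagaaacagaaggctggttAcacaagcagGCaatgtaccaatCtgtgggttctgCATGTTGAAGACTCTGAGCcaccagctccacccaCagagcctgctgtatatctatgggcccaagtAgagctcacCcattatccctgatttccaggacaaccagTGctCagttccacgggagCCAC

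The Ear1 window matched Ear2 at 294 bases of 300 and the Ear6 window at 257. The likeness continued into the transcripts, where Ear1 and Ear2 were identical at 96.9% of the bases of the shorter transcript and Ear6 and Ear2 at 82.9%. Of the 251 stretches of 50 bases in the last 300 bases of the Ear2 transcript, the part that 3′ libraries read, 96 occurred unchanged in Ear1 and 9 in Ear6. A read from such a stretch cannot be assigned to 1 gene, so the counts of Ear1 and Ear2 carry this uncertainty.

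Over the 69085 kept cells, Siglecf was counted 15786 times in 6990 cells, Prg2 8470 times in 1807 cells, Ear2 6445 times in 1870 cells, Ccr3 776 times in 572 cells and Il5ra 500 times in 277 cells. Ear6 was counted 69 times in 39 cells and Ear1 3 times in 3 cells. Epx, the gene for the granule peroxidase, was counted once, in an olfactory neuron-like cell of Ribavirin. It was at 0 in the 24132 cells of Vehicle, the 16820 of Vehicle-OVA and the 8742 of Ribavirin-OVA, which allows a share of cells with an Epx UMI of up to 0.0124%, 0.0178% and 0.0343%. The barcodes removed by the filters held no further Epx UMI. Epx was thus not detected in the libraries with OVA at this depth.

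**Figure D1:**
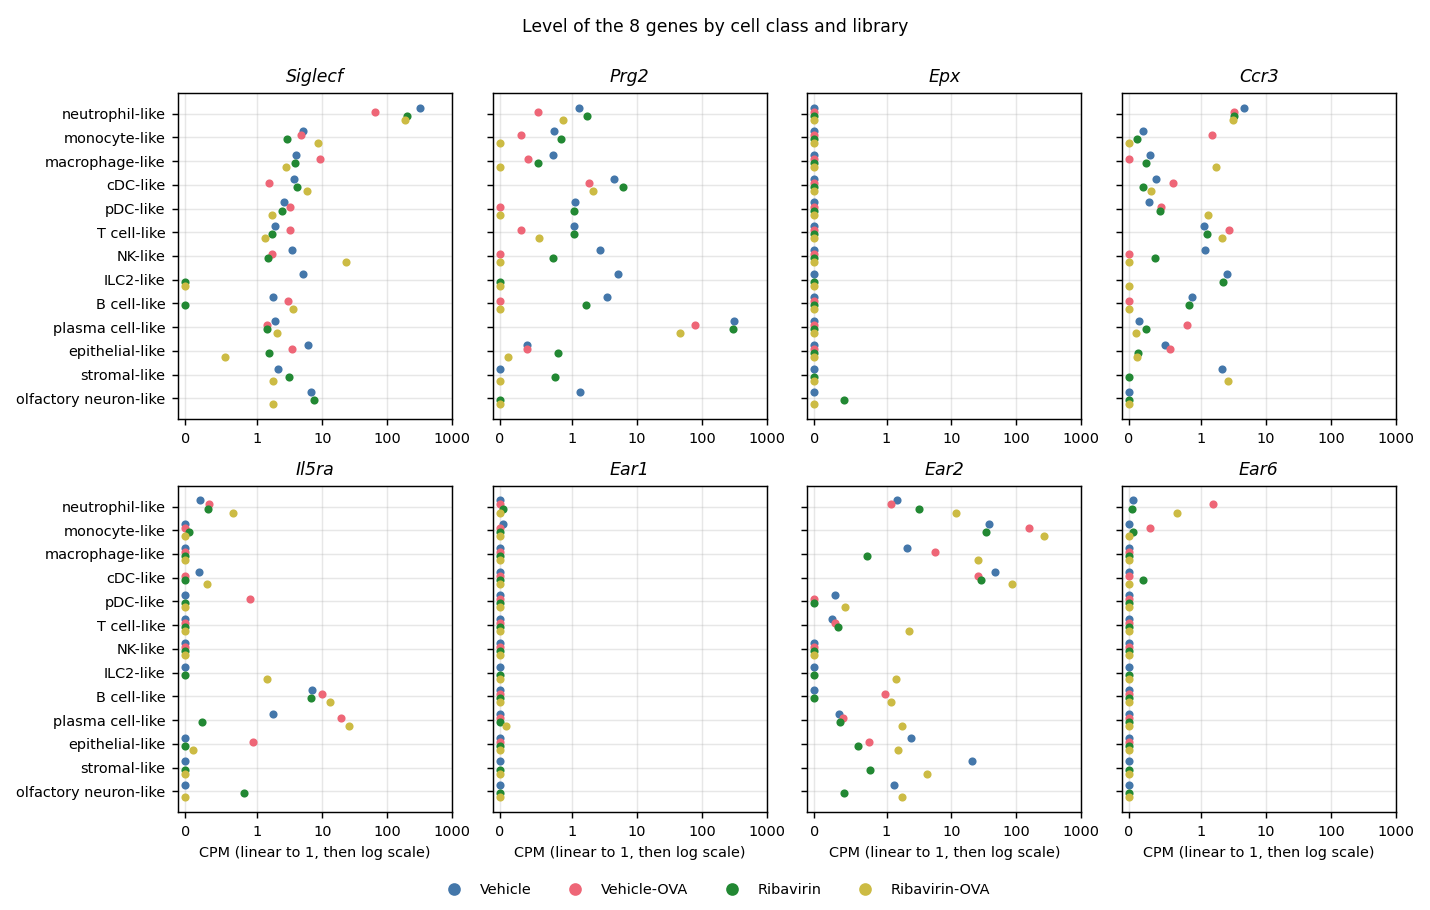
Level of each of the 8 genes, in UMIs of the gene per 1000000 UMIs (CPM, linear to 1 and then logarithmic), by cell class and library; each point is the summed level of 1 library, drawn where a class held at least 50 of its cells. Siglecf stands highest in neutrophil-like and Prg2 in plasma cell-like cells in every library, Ear2 in monocyte-like cells in every library but Vehicle, where cDC-like cells stand above them, and Epx is at 0 everywhere except 1 UMI in olfactory neuron-like cells.

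The genes rarely met in the same cell. Of the kept cells, 11226 held a UMI of at least 1 of the 8 genes, 324 of at least 2, 9 of at least 3 and none of 4. Among all 79132 barcodes, 10 held at least 3 of them and none held 4. No cell held Siglecf, Ccr3 and Il5ra together, the members that encode surface proteins of eosinophils. Ccr3 and Il5ra were found in only 572 and 277 cells in all, which limits this count. Siglecf and Prg2 met in 57 cells, of which 36 were plasma cell-like and 17 neutrophil-like. Siglecf and Ccr3 met in 71 cells, 66 of them neutrophil-like. Prg2 and Il5ra met in 46 cells, all plasma cell-like.

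Siglecf was carried by neutrophils. Neutrophil-like cells held a mean of 92.4% of its UMIs in a library, and its level there was 320.2 CPM (95% interval 312 to 328) in Vehicle and 204 (198 to 210) in Ribavirin, and with OVA 64.0 (61.3 to 66.7) in Vehicle-OVA and 186 (178 to 195) in Ribavirin-OVA. Vehicle was the highest library and Vehicle-OVA the lowest, and no interval overlapped another. T cell-like cells, which should lack the gene, held 1.87 CPM in Vehicle, 3.16 in Vehicle-OVA, 1.69 in Ribavirin and 1.31 in Ribavirin-OVA. Values given in a row below follow that order of libraries. Before thinning, a Siglecf UMI was found in 38.4%, 8.56%, 28.8% and 25.9% of the neutrophil-like cells, against 0.718% to 0.855% of T cell-like cells. After thinning every cell to 1000 UMIs, which left out 915 of 27057 neutrophil-like cells, the shares were 21.3%, 4.72%, 14.6% and 14.2%, against 0.0851% to 0.393% of T cell-like cells. The second class in Ribavirin-OVA was NK-like cells at 22.8 CPM, from 23 UMIs. Median depths were 2688 UMIs in neutrophil-like and 4491 in T cell-like cells.

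Most of this came from 1 of the 8 neutrophil-like clusters. Cluster 0, with 6545 cells, held 75.9% of all Siglecf UMIs, and cluster 1 a further 12.1%. In cluster 0 the level without OVA was 602 CPM (586 to 619) in Vehicle and 557 (540 to 575) in Ribavirin, and with OVA 709.9 (673 to 748) in Vehicle-OVA and 532 (504 to 561) in Ribavirin-OVA. Vehicle-OVA, the lowest library over the whole class, was thus the highest within this cluster. Cluster 1 held 105, 114, 96.5 and 131 CPM. Siglecf and the other members were left out of the genes used when the cells were clustered. Cluster 0 detected 9 of the 14 listed neutrophil markers. Among them were S100a8, which encodes a calprotectin subunit, at 20184 CPM in Vehicle, and Cxcr2, the receptor for neutrophil-attracting chemokines, at 1130 CPM. Ly6g, Camp and Ngp were not among them. Ly6g was at 0.335, 1.51, 1.46 and 2.77 CPM, from 23 UMIs over the 4 libraries. Camp was at 7.82, 6.02, 15.7 and 20.5 CPM and Ngp at 14.7, 17.6, 19.9 and 32.8. Of the eosinophil list only Siglecf was detected there, and Siglecf was also the cluster's leading gene. If the eosinophil list was allowed to name clusters, a choice tried after seeing the data, cluster 0 was left unnamed and the neutrophil-like share of Siglecf UMIs became 19.5%. In its 4 libraries Epx was at 0, Prg3 at 0 and Ear1 at 0, Il5ra summed to 5 UMIs and Ear2 to 17, and Ccr3 lay between 2.47 and 6.32 CPM.

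**Figure D2:**
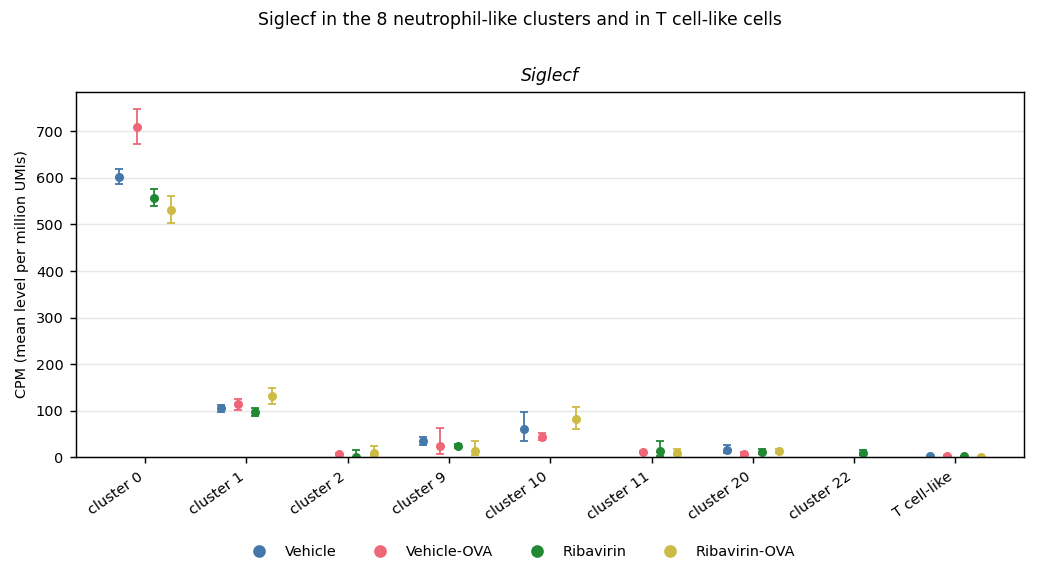
Siglecf level in CPM (vertical axis, from 0) in the 8 neutrophil-like clusters and in T cell-like cells, by library; points are summed levels, bars the exact Poisson 95% interval, and groups under 50 cells are not drawn. Cluster 0 stands at 532 to 709.9 CPM in the 4 libraries and cluster 1 at 96.5 to 131.

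The makeup of the neutrophil-like class differed between the libraries beside these levels, and its part in the class ratio was not tested. The share of cluster 0 was 42.4% (41.2% to 43.6%) in Vehicle, but 6.23% (5.78% to 6.70%) in Vehicle-OVA. Under ribavirin the shares were 30.9% (29.8% to 32.1%) without OVA and 32.2% (30.4% to 34.0%) with it. Cluster 1 was 42.2%, 10.0%, 24.4% and 24.1% of the class. In Vehicle-OVA, clusters 2, 10 and 11 held most neutrophil-like cells, and these clusters came mainly from that library. With OVA under vehicle the Siglecf level over all neutrophil-like cells differed by a log2 ratio of -2.32, while the median over all 11346 genes compared was -0.60, and 30.8% of those genes were at least 2-fold lower. With OVA under ribavirin the log2 ratio was -0.13, against a median of 0.28, and 2.41% of genes were at least 2-fold lower. In cluster 0 alone the ratio with OVA was 1.18 (1.11 to 1.25) under vehicle and 0.955 (0.897 to 1.02) under ribavirin. Without cluster 0, the ratio was 0.284 (0.258 to 0.314) under vehicle and 1.19 (1.04 to 1.35) under ribavirin.

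Other genes set the Siglecf-positive neutrophil-like cells apart, as a description after thinning. In all 4 libraries the positive cells held more Adamdec1, a metalloprotease gene, at 149 against 37.7 CPM in Vehicle and 204 against 35.4 in Ribavirin, and more Cysltr1, a receptor for cysteinyl leukotrienes, at 99.4 against 33.2 CPM in Vehicle. They held less Camp, the granule cathelicidin of young neutrophils, at 8.17 against 395 CPM in Vehicle and 33.2 against 843 in Ribavirin, and less Ngp, another gene of immature granules. Cluster 0 itself held 58.3% of all Ltc4s UMIs, the gene for leukotriene C4 synthase, at 525, 285, 490 and 263 CPM. Across 49 sums of a class in a library, the gene most like Siglecf was Nlrp12 at a Pearson correlation of 0.87 of log2(CPM + 1), followed by Mmp9, a neutrophil gelatinase, also at 0.87. These sums share libraries and cells.

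Prg2 was carried by plasma cells. Plasma cell-like cells held a mean of 92.3% of its UMIs in a library, at 316 CPM (307 to 326) in Vehicle and 298 (286 to 310) in Ribavirin. With OVA it stood at 79.4 CPM (71.7 to 87.5) in Vehicle-OVA and 46.6 (42.7 to 50.9) in Ribavirin-OVA. Both libraries without OVA were above both with it. The largest number of Prg2 UMIs in 1 cell was 145. A Prg2 UMI was found in 64.6%, 35.4%, 70.8% and 27.3% of plasma cell-like cells, against 0.156% to 0.596% of T cell-like cells, and the shares after thinning to 1000 UMIs were 20.7%, 6.64%, 22.2% and 4.75%. Median depth was 12273 UMIs in plasma cell-like cells. With OVA the ratio of Prg2 was 0.251 (0.226 to 0.278) under vehicle and 0.157 (0.142 to 0.172) under ribavirin. Of 10812 genes compared in these cells, 2.03% and 2.76% were at least 2-fold lower with OVA, and the median log2 ratio was 0.50 and 0.49.

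The plasma cells with and without OVA fell into different clusters, named here because the values rest on them. Cluster 15 held 86.1% of plasma cell-like cells in Vehicle and 83.4% in Ribavirin but 1.11% and 1.39% in the libraries with OVA, where cluster 25 held 76.0% and 62.8%. Prg2 was at 394 CPM (383 to 406) and 363 (348 to 378) in cluster 15 without OVA, and at 115 (104 to 127) and 86.7 (78.9 to 94.97) in cluster 25 with OVA. Cluster 27, which held dividing plasma cells by its leading genes and came from all 4 libraries, gave 56.0 and 59.2 CPM without OVA and 13.7 and 6.87 with it. The difference was therefore also present within that cluster, at a ratio of 0.244 (0.153 to 0.375) under vehicle and 0.116 (0.0778 to 0.169) under ribavirin. Jchain, which encodes the joining chain of polymeric antibodies, was at 123865 CPM in cluster 15 of Vehicle and 57503 in cluster 25 of Vehicle-OVA, so it too was lower where Prg2 was. The part of the change in plasma cell state in the Prg2 difference was not tested.

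**Figure D3:**
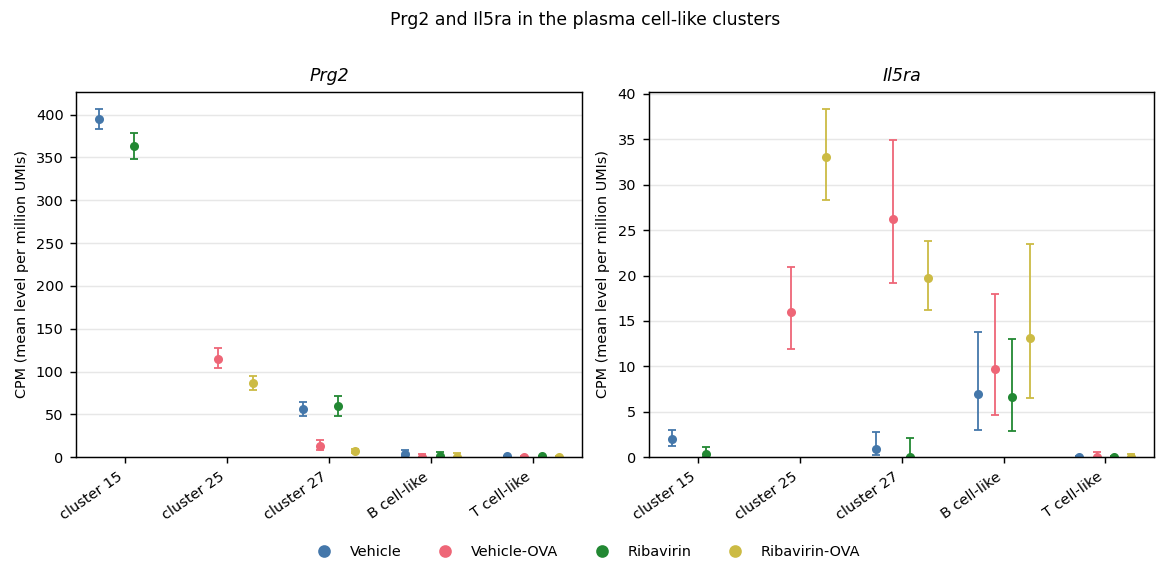
Prg2 (left) and Il5ra (right) level in CPM (vertical axes, from 0) in the plasma cell-like clusters 15, 25 and 27 and in B cell-like and T cell-like cells, by library; points are summed levels and bars the exact Poisson 95% interval, drawn where a group held at least 50 cells. Prg2 is high in cluster 15 without OVA, and Il5ra is at 16.0 to 33.0 CPM in clusters 25 and 27 with OVA.

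Prg2 UMIs outside plasma cells were set against the Jchain UMIs of the same cells, as a description. Plasma cell-like cells held 3.04, 1.91, 3.08 and 1.34 Prg2 UMIs per 1000 Jchain UMIs. This proportion differed between their clusters, at 3.18 (3.09 to 3.28) in cluster 15 and 1.54 (1.32 to 1.78) in cluster 27 of Vehicle. In Vehicle the proportion was 3.67 (2.47 to 5.24) in T cell-like, 2.43 (1.57 to 3.59) in neutrophil-like, 3.08 (1.88 to 4.75) in macrophage-like and 3.45 (1.97 to 5.60) in monocyte-like cells, each interval holding the plasma cell value. The other libraries were less even. In Ribavirin macrophage-like cells at 2.77 (1.38 to 4.95) and monocyte-like cells at 3.68 (2.06 to 6.07) again held the plasma cell value. So did the T cell-like, macrophage-like and monocyte-like intervals in both libraries with OVA, from at most 5 Prg2 UMIs each. Other groups did not. In Ribavirin the proportion was 5.56 (3.52 to 8.34) in T cell-like and 4.91 (3.47 to 6.74) in neutrophil-like cells, in Vehicle-OVA 4.66 (2.76 to 7.36) and in Ribavirin-OVA 3.82 (1.65 to 7.53) in neutrophil-like cells, all above the plasma cell value of their library. The part of free RNA, set free by plasma cells, in these UMIs was not tested. The cDC-like cluster 29, led by Ccr7 and Fscn1, genes of migrating dendritic cells, stood apart at 18.0 (12.1 to 25.9) in Vehicle and 282 (210 to 372) in Ribavirin. Its Prg2 level was 25.1, 3.36, 50.2 and 7.34 CPM, and its level of Prg3, a close relative of Prg2, was 26.9, 8.40, 24.1 and 2.45 CPM. These values rest on 29, 2, 50 and 3 Prg2 UMIs in 185, 59, 110 and 50 cells. Both genes were lower in the libraries with OVA there. In cDC-like cluster 12 the proportion was 10.7, 30.3, 9.99 and 12.7, from 18, 4, 13 and 4 UMIs. The unnamed cluster 23, led by Gata2 and Cd200r3, held Prg2 at 179.7, 50.5, 17.5 and 40.2 CPM, from 49, 11, 2 and 10 UMIs. Its proportion was 7.08 (5.24 to 9.36) in Vehicle, above the plasma cell value. It was 3.93 in Vehicle-OVA, 4.50 in Ribavirin-OVA and 5.85 in Ribavirin, where the interval held the plasma cell value. The part of free RNA in these values was not tested.

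**Figure D4:**
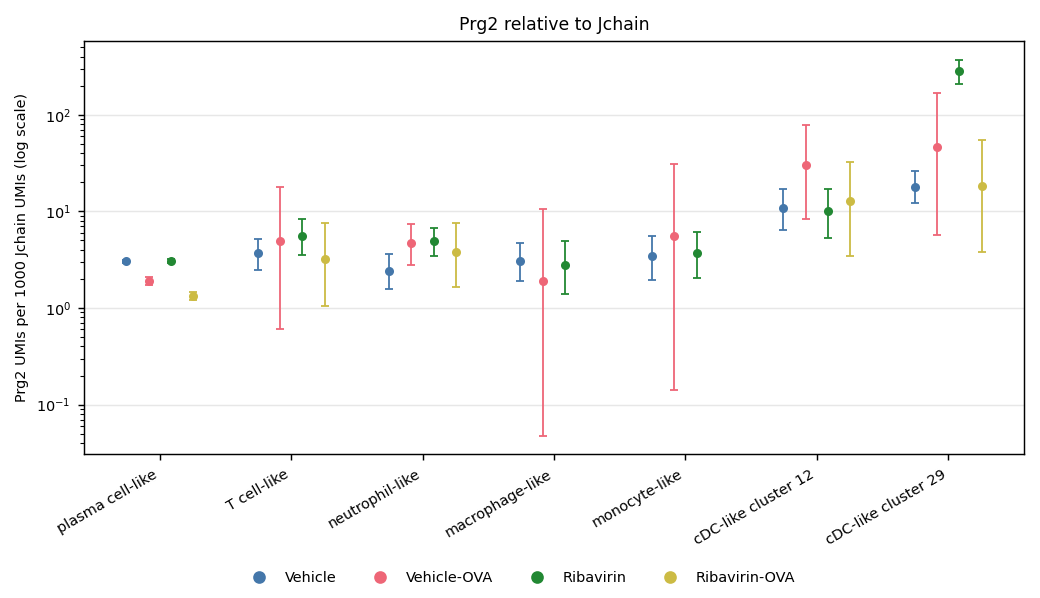
Prg2 UMIs per 1000 Jchain UMIs (vertical axis, log scale) by class or cluster and library, with the exact 95% interval; groups with under 50 cells or no Prg2 UMI are not drawn. In Vehicle, T cell-like, neutrophil-like, macrophage-like and monocyte-like cells lie at 2.43 to 3.67, near the 3.04 of plasma cell-like cells. There cDC-like cluster 12 lies at 10.7 and cDC-like cluster 29 at 18.0.

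Prg2-positive plasma cell-like cells held more Jchain than negative ones in each library, at 153467 against 110265 CPM in Vehicle after thinning, and more Tmem176a, a membrane protein gene, at 1896 against 1279 CPM. They held less Mki67 and Top2a, genes of dividing cells, with 34.7 against 162 CPM for Mki67 in Vehicle. Across the 49 sums the gene most like Prg2 was C4bp, a complement regulator gene, at a correlation of 0.93, and Tnfrsf17, the plasma cell receptor BCMA, was among the next 4 genes at 0.89.

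Il5ra, the interleukin 5 receptor gene, differed in the other direction in the same class, whose makeup by cluster also differed with OVA. In plasma cell-like cells it was at 1.74 CPM (1.12 to 2.57) in Vehicle and 0.238 (0.0289 to 0.861) in Ribavirin. With OVA it was at 19.5 CPM (15.9 to 23.8) in Vehicle-OVA and 26.1 (23.1 to 29.3) in Ribavirin-OVA. Both libraries with OVA were above both without it. It was at 16.0 and 33.0 CPM in cluster 25 with OVA. In cluster 27 it was at 26.2 and 19.7 CPM with OVA, against 3 UMIs in Vehicle and 0 in Ribavirin. At least 2-fold higher values were seen in 18.9% of the genes under vehicle and 20.4% under ribavirin, and Il5ra was among these. B cell-like cells held 7.01, 9.74, 6.63 and 13.1 CPM, with overlapping intervals. Clusters 25 and 27 together with B cell-like cluster 19 held 45.4%, 31.6% and 7.40% of all Il5ra UMIs.

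Ear2 was shared between monocytes and other myeloid cells. In Vehicle cDC-like cells held more of it, at 46.6 CPM, than monocyte-like cells, and in Ribavirin the intervals of the 2 classes overlapped. Monocyte-like cells held a mean of 47.4% of its UMIs in a library, from 32.2% to 55.9%. In Ribavirin-OVA they held 900 of its 2799 UMIs, fewer than the 1335 of the unnamed cluster 7. The level of monocyte-like cells was 37.2 CPM (34.7 to 39.9) in Vehicle and 33.5 (30.9 to 36.3) in Ribavirin. With OVA the class stood at 154 CPM (141 to 168) in Vehicle-OVA and 266 (249 to 284) in Ribavirin-OVA. The class is made of cluster 17, led by Ace and Cd300e, genes of nonclassical monocytes, together with Vcan and F13a1, genes of classical monocytes, and cluster 5, led by Ly6i and Cxcl9. Cluster 17 was 15.4% and 22.4% of the class without OVA but 63.2% and 74.2% with it. With OVA the class level was higher, at ratios of 4.14 (3.70 to 4.63) under vehicle and 7.93 (7.15 to 8.81) under ribavirin. The part of the makeup in these ratios was not tested. In cluster 5 alone the ratio under vehicle was 0.759 (0.387 to 1.35), from 238 UMIs in Vehicle and 12 in Vehicle-OVA. Under ribavirin it was 3.79 (2.55 to 5.49), at 10.9 CPM without OVA and 41.4 with it. When cluster 5 was not assigned to monocytes, as in 7 alternatives, the log2 ratio under vehicle fell from 2.05 to between 0.01 and 0.21. Under ribavirin it fell from 2.99, to no lower than 1.14. Among 10712 genes compared, 10.9% under vehicle and 11.4% under ribavirin were at least 2-fold higher.

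In cluster 17 alone, Ear2 was at 237.2 CPM (218 to 258) in Vehicle and 236.8 (217 to 258) in Vehicle-OVA. Under ribavirin it was at 141 CPM (128 to 155) without OVA and 341 (318 to 364) with it. With OVA the ratio was 0.999 (0.884 to 1.13) under vehicle and 2.41 (2.15 to 2.72) under ribavirin. A UMI was found in 47.2%, 51.3%, 35.9% and 63.4% of these cells, against 0.108% to 1.31% of T cell-like cells, with median depths of 6779 and 4491 UMIs, and after thinning in 19.2%, 19.0%, 11.7% and 28.2%. Ace, the angiotensin-converting enzyme gene, was in the cluster at 423, 365, 343 and 546 CPM, and Adgre4 at 245, 277, 195 and 447 CPM. Of the 7 nonclassical markers listed, 6 were highest in Ribavirin-OVA, as was Ear2, and Pglyrp1 was highest in Vehicle, at 196, 118, 146 and 185 CPM. The classical markers Vcan, at 150, 636, 174 and 252 CPM, and F13a1, at 268, 883, 269 and 519 CPM, were highest in Vehicle-OVA. So were Ccr2, Ms4a4c and Fn1 of the same list. The other listed monocyte markers were not: Ly6c2 was highest in Ribavirin, at 1176, 1079, 1292 and 987 CPM. Plac8 was highest in Vehicle, at 5745, 3449, 5362 and 3259 CPM. The markers of both monocyte types thus differed between libraries within the cluster, and their part in its Ear2 ratios was not tested.

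**Figure D5:**
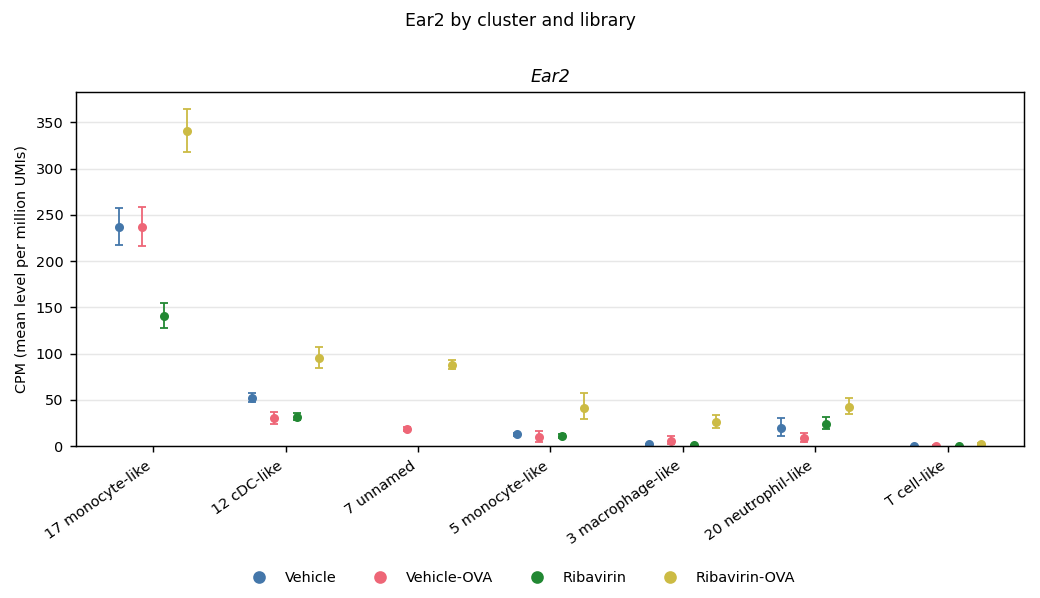
Ear2 level in CPM (vertical axis, from 0) in 6 clusters and in T cell-like cells, by library; points are summed levels and bars the exact Poisson 95% interval, drawn where a group held at least 50 cells. Ribavirin-OVA is the highest library in cluster 17, cDC-like cluster 12 and the unnamed cluster 7.

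Cluster 12, of cDC-like cells, held Ear2 at 52.2, 30.1, 31.6 and 95.2 CPM. Cluster 7 was left unnamed and was led by Ccl24, Arg1 and Retnla, genes of alternatively activated macrophages. It came mainly from the libraries with OVA and held 18.5 CPM (16.7 to 20.4) in Vehicle-OVA and 88.2 (83.5 to 93.0) in Ribavirin-OVA. This cluster held 27.1% of all Ear2 UMIs. Macrophage-like cells held 2.09, 5.53, 0.724 and 25.5 CPM, and their ratio with OVA under ribavirin was 35.3 (20.1 to 66.2), from 15 and 74 UMIs. Neutrophil-like cluster 20, led by the immature granule genes Camp and Ngp, held 19.1, 8.60, 24.2 and 42.4 CPM. Ribavirin-OVA was also the highest library in T cell-like cells, at 2.19 CPM against 0.246 to 0.329 in the other libraries, and the part of free RNA in its values was not tested. Ear2-positive monocyte-like cells held more Ceacam1, a cell adhesion gene, at 505 against 62.4 CPM in Vehicle, and less C1qa, a complement gene of macrophages, at 139 against 1002. Across the 49 sums, Ocstamp was the gene most like Ear2, at a correlation of 0.88.

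The other Ear genes were nearly absent. Ear1 and Ear10 were counted 3 times each and Ear14 once. Ear6 was counted 57 times in Vehicle-OVA, 7 times in Ribavirin-OVA, 4 times in Ribavirin and once in Vehicle. Neutrophil-like cells held 51 of the 57, at 1.51 CPM (1.12 to 1.98), and cluster 10, led by heat shock genes and mainly from Vehicle-OVA, held 32 of them. A single UMI stood in the Vehicle neutrophil-like cells, so that the ratio of 29.5 has an interval of 5.07 to 1189.

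Ccr3, the eotaxin receptor gene, was spread thinly. The highest levels were in 2 unnamed clusters. Cluster 14 was led by Foxp3, the regulatory T cell factor. It also held 66.9% of all UMIs of Il4 and 61.4% of those of Il5, both type 2 cytokine genes, so its cells need not be of 1 type. The cluster held 29.5% of all Ccr3 UMIs, at 15.9 CPM (11.7 to 21.0) in Vehicle and 14.4 (9.33 to 21.3) in Vehicle-OVA. Both ribavirin libraries were higher, at 27.5 CPM (21.8 to 34.1) without OVA and 28.4 (22.3 to 35.7) with it. The ratio of Ribavirin to Vehicle was 1.73 (1.20 to 2.52) and that of Ribavirin-OVA to Vehicle-OVA 1.97 (1.24 to 3.24), while with OVA it was 0.909 (0.538 to 1.4997) and 1.03 (0.745 to 1.44). Cluster 23, led by Gata2 and Cd200r3 and of a median of 889 UMIs, held 64.3 CPM (35.2 to 108) in Vehicle-OVA and 72.4 (42.9 to 114) in Ribavirin-OVA, from 14 and 18 UMIs, and 1 UMI in each library without OVA. Mcpt8, a basophil protease gene, was there at 0 CPM in Vehicle, 1029 in Vehicle-OVA, 61.3 in Ribavirin and 704 in Ribavirin-OVA, and S100a8 at 30043, 6995, 2276 and 918 CPM, so the cells of Vehicle in this cluster differed from the others. Neutrophil-like cells held 4.59, 3.22, 3.26 and 3.08 CPM, and T cell-like cells 1.13, 2.73, 1.22 and 2.08.

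Over all kept cells, the eotaxin genes were higher with OVA under both vehicle and ribavirin. Ccl11 and Ccl24 were at 0.176 and 1.29 CPM in Vehicle, 13.1 and 828 in Vehicle-OVA, 0.793 and 4.58 in Ribavirin and 8.93 and 466 in Ribavirin-OVA. Il5 was at 0.298, 1.10, 0.557 and 7.45 CPM. Of the 6 listed ligand genes, 2 were at least 2-fold higher and 1 lower with OVA under vehicle, and 4 and 1 under ribavirin. Against these, 7.18% of 16693 genes were at least 2-fold higher and 4.97% lower under vehicle, and 5.34% and 1.15% under ribavirin. Of the 6 members with at least 50 UMIs, Prg2 was at least 2-fold lower with OVA under vehicle and none was higher. Under ribavirin Prg2 was again lower, and Il5ra and Ear2 were higher. Of the 16 other eosinophil genes listed, 5 were at least 2-fold higher and 1 lower under vehicle, and 5 and 0 under ribavirin, with median log2 ratios of 0.44 and 0.22 against 0.01 and 0.30 over all genes. All 6 basophil markers were higher under ribavirin and 5 of 6 under vehicle.

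Within the leading classes, Siglecf was at least 2-fold lower with OVA under vehicle in neutrophil-like cells, as were 30.8% of genes, and Ear6 higher, as were 6.33%. Prg2 was lower in plasma cell-like cells, as were 2.03% of genes, and Il5ra higher, as were 18.9%. Ear2 was higher in monocyte-like cells, as were 10.9% of genes, and neither of the 2 members compared there was lower, against 4.46% of genes. Under ribavirin Ear2 was higher in neutrophil-like cells, as were 6.92% of genes, at a ratio of 3.63 (2.66 to 4.97). Cluster 20 held 57 of the 71 Ear2 UMIs of that class in Ribavirin and 96 of the 106 in Ribavirin-OVA, from 279 of 6609 and 287 of 2606 cells, and within it the ratio was 1.76 (1.25 to 2.48). In plasma cell-like cells Prg2 was again lower, as were 2.76% of genes, and Il5ra higher, as were 20.4%. Siglecf and Ear2 were higher in monocyte-like cells, as were 11.4% of genes, and neither was lower, against 4.37%. For Siglecf this was 2.81 against 8.57 CPM over the class, but 8.74 against 9.85 CPM in cluster 17 alone, whose share of the class was 22.4% and 74.2%. These comparisons do not share libraries between vehicle and ribavirin, but each shares its libraries with the comparisons that follow.

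The libraries with ribavirin were also set against those with vehicle. Without OVA, no member was at least 2-fold apart over all cells, where 5.08% of genes were higher and 0.0659% lower. In neutrophil-like cells, with 1.34% of genes higher and 0.132% lower, and in monocyte-like cells, with 0.691% higher and 0.0467% lower, no member passed either on the log2(CPM + 1) scale. Without the added 1, the Ear2 ratio in neutrophil-like cells was 2.25 (1.43 to 3.62), from 28 UMIs in Vehicle and 71 in Ribavirin. In plasma cell-like cells Il5ra was lower, from 25 UMIs in Vehicle and 2 in Ribavirin, while 1.04% of genes were higher and 0.139% lower. With OVA, Ear2 was higher over all cells, at 33.5 CPM in Ribavirin-OVA against 12.2 in Vehicle-OVA, where 8.27% of genes were higher and 2.71% lower. In neutrophil-like cells Siglecf was higher, at a ratio of 2.91 (2.73 to 3.10), as was Ear2, at 11.7 against 1.15 CPM, but 30.0% of genes there were higher and 2.55% lower, and the median log2 ratio was 0.74. Cluster 20 held 96 of the 106 Ear2 UMIs in Ribavirin-OVA and 14 of the 39 in Vehicle-OVA, from 287 of 2606 and 145 of 10789 cells, and within it the ratio was 4.93 (2.80 to 9.36) against 10.1 over the class. In cluster 0 alone the Siglecf ratio was 0.750 (0.695 to 0.808), in the other direction. No member passed in plasma cell-like cells, where 1.29% of genes were higher and 2.02% lower, or in monocyte-like cells, where 2.33% were higher and 1.13% lower.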

How the data were processed

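CD45+ cells of the nasal mucosa were isolated by magnetic sorting per the labels (the design text names flow sorting) and loaded on 10x Chromium 3′ chemistry. The authors deposited raw UMI counts per gene and barcode from Cell Ranger 5.0.0 on mm10. The counts of the 4 libraries were used as deposited. Barcodes with at least 500 UMIs, 200 genes and under 10% mitochondrial UMIs were kept. Doublets were marked against simulated pairs in each library and removed, 0.851% to 6.20% of cells. Cells were log-normalised and clustered together (2000 variable genes without the eosinophil markers and Ear genes, 30 principal components, 15 neighbours, Leiden at resolution 1.0; leidenalg 0.10.2, igraph 0.11.9). A cluster was named from a marker list when at least 3 of its markers were detected (at least 2-fold over the median cluster and in 10% of cells). The eosinophil list took no part in naming, and clusters with Cd3d, Cd3e and Cd3g detected were not named ILC2 or NK. Both choices were made after the clusters were seen. Median UMIs per barcode ran from 3389 to 4952. UMIs of a class were summed in each library and given as counts per 1000000 UMIs (CPM) with exact Poisson intervals, shares with exact Clopper-Pearson intervals and ratios with exact conditional binomial intervals, all at 95% and for counting error only. Positive and negative cells were compared after thinning to 1000 UMIs, naming the 5 genes with the largest and the 5 with the smallest ratio of the same direction in all libraries; likeness across classes named the 5 genes with the highest correlation. Genes at least 2-fold apart were counted on log2(CPM + 1) among genes with at least 50 UMIs, list members among those with at least 20. The step was tested on simulated data. With 1 library per group no test was made. Alternatives were other filters, resolutions, gene sets, class rules and thinning depths. The members, lists and rules were chosen with earlier results of these data known. Gene positions came from GENCODE M21 and promoters from RefSeq.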

Additional observations from a re-analysis of the deposited data

Results flagged for a closer look

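The OVA ratio of Ear2 lay on opposite sides under vehicle and under ribavirin in 2 classes, a difference that was not tested. In cDC-like cells the log2 ratio was -0.89 under vehicle and 1.56 under ribavirin, and in epithelial-like cells it was -1.66 and 1.32. The epithelial-like values rest on 19 UMIs in Vehicle, 4 in Vehicle-OVA, 20 in Ribavirin and 27 in Ribavirin-OVA.

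Barcodes removed by the filters held members at higher or lower levels than the kept cells, depending on the library. Siglecf was at 54.9 CPM in the removed barcodes of Vehicle against 45.6 in the kept cells, and in Ribavirin-OVA at 13.8 against 22.4. Prg2 was at 26.4 against 17.7 CPM in Ribavirin, but at 24.5 against 32.3 in Vehicle, 1.20 against 4.94 in Vehicle-OVA and 0.738 against 6.66 in Ribavirin-OVA. Ear2 was at 9.91 against 7.00 CPM in Ribavirin, but at 7.25 against 12.2 in Vehicle-OVA and 22.3 against 33.5 in Ribavirin-OVA.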

How the results depend on the processing

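No paired analysis was possible because each group held 1 library, and for the same reason no replicate could be left out. Of the values recomputed under the alternatives, 72 stayed within their counting interval or within 1.5 times of a count, 54 moved and 2 turned direction. The Siglecf log2 ratio with OVA under ribavirin, -0.13, became 1.01 with cells of up to 20% mitochondrial UMIs, when the neutrophil-like class held 45.5% of cluster 0, and 0.25 when eosinophil markers could name clusters, a setting chosen after seeing the data. In those settings the ratio under vehicle was -1.38 and -1.81 and the neutrophil-like share of Siglecf UMIs 59.98% and 19.5%. That share was 87.0% with marked doublets kept and 90.5% with classes from single-cell markers, and the ratio under vehicle -2.21 when the CPM of single cells was averaged. With eosinophil markers naming clusters, cluster 25 left the plasma cells, whose share of Prg2 became 49.9% with log2 ratios of -4.55 under vehicle and -5.08 under ribavirin. The ratio of Prg2 was also -2.23 under vehicle at 5% mitochondrial UMIs, and under ribavirin -2.50 with single-cell markers and -2.45 from averaged CPM of cells. For Ear2 in monocyte-like cells, the share was 41.6%, 38.4%, 40.4%, 32.5%, 39.6%, 39.0% and 40.2% with limits of 5% and 20% mitochondrial UMIs, at least 1000 UMIs, doublets kept, resolution 0.5, resolution 2.0 and the members allowed as variable genes. In that order the log2 ratio under vehicle was 0.062, 0.017, 0.21, 0.18, 0.040, 0.010 and 0.078, and under ribavirin 1.19, 1.29, 1.44, 1.40, 1.14, 1.23 and 1.21. In all of them the class held at most 5.19% of cluster 5. With single-cell markers the ratios were 0.92 and 2.26, and from averaged CPM of cells 1.75 and 2.65. The mean share of positive cells at 500 UMIs, 2000 UMIs and without thinning was 7.72%, 24.1% and 25.4% for Siglecf, 8.48%, 21.5% and 49.6% for Prg2 and 5.62%, 16.3% and 26.8% for Ear2. With a pseudocount of 0.1 CPM, genes past 2-fold over all cells numbered 1935 higher and 1455 lower under vehicle, against 1198 and 829, and 1767 and 391 under ribavirin, against 892 and 192. In neutrophil-like cells under ribavirin they numbered 1206 and 461, against 785 and 274, and in monocyte-like cells under vehicle 719 were lower, against 478. Counts of Ear1, Ear6, Epx and Il5ra were low, at 3, 69, 1 and 500 UMIs over all kept cells, which limits what they can show. The part of depth in these counts was not tested.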
